A study of Caenorhabditis elegans with 2 samples.

Results

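Candidate binding regions of BLMP-1 that lay beside genes for small nucleolar RNAs (snoRNAs) and small nuclear RNAs (snRNAs) were examined in Caenorhabditis elegans embryos. A region was included when its summit, the position of highest signal, lay on a nuclear chromosome of build ce11 within 500 bp of an annotated snoRNA or snRNA gene and more than 500 bp from every tRNA gene. Of the 29974 nuclear candidates in the authors' pooled list of 30000, 230 met this rule, 188 of them nearest a snoRNA gene and 42 nearest a snRNA gene. A further 2 regions were left out because a tRNA gene was also within 500 bp. The 230 regions were distributed over 199 genes, and 29 genes had more than 1 region, up to 3. The choice used position alone and no measured value.

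The factor BLMP-1, a zinc finger protein homologous to vertebrate PRDM1, regulates transcription. ChIP-seq used its eGFP tag, in intact embryos of mixed stages and both sexes from strain OP109, which carries the integrated tagged blmp-1 transgene wgIs109 and the unc-119(ed3) III mutation. There was 1 group with 2 biological replicates, and no untagged or untreated sample was analysed here. The protein measured is therefore the product of a transgene, and signal from all embryonic cell types was pooled. The authors' IDR list, named for the irreproducible discovery rate, had 818 nuclear peaks, and both replicates had a list of 30000 candidates like the pooled one. The candidate lists include background regions by design, so presence in one is a weak criterion. Strength is the authors' signal value, a score of unstated scale, so ranks within a list (1 is strongest) were used to compare lists. The top of a replicate means as many of its strongest candidates as the IDR list has peaks. Read depth is unknown, and the regions are not replicates of one another.

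Small nucleolar RNAs guide the chemical modification of ribosomal RNA, those of the box C/D class directing methylation and those of the H/ACA class pseudouridylation. Small nuclear RNAs form the core of the spliceosome, and in nematodes the spliced leader RNAs, encoded by the sls genes, donate their leader to the start of many mRNAs. Many snoRNA genes lie in introns of host genes, while others have promoters of their own. RNA polymerase III recognises tRNA genes through a pair of internal promoter words, box A and box B, and such words also occur upstream of some C. elegans snoRNA genes.

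Of the 21 regions in the IDR list, 4 lay at a snoRNA gene preceded by both a box A and a box B word. Their sequences are shown because the spacing of the words and the place of the summit can be read from them. Each line runs 5′ to 3′ along the gene, from 110 bases before its annotated first base to its first 40 bases (build ce11, RefSeq assembly WBcel235). Capitals mark a match to TGGCNNAG (box A, the first in the line apart from T03F7.8) and to GTTCNANNC (box B, the last capitals in each line). In T03F7.8 the first capitals are the reverse complement of AAGTGAAA, the core word of BLMP-1 and PRDM1 sites.
T03F7.8, chrV:11314148-11314297, + strand: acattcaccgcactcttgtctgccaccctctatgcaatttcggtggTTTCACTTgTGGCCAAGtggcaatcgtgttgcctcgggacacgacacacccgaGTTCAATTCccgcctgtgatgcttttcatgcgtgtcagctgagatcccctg
C04G6.12, chrII:5105192-5105341, - strand: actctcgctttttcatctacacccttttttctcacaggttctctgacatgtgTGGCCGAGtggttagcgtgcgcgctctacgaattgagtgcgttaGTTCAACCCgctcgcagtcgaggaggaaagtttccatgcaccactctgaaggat
F32E10.10, chrIV:7574012-7574161, + strand: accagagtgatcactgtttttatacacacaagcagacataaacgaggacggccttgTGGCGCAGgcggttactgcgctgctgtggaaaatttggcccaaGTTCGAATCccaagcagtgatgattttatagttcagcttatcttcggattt
W03C9.9, chrII:11960788-11960937, + strand: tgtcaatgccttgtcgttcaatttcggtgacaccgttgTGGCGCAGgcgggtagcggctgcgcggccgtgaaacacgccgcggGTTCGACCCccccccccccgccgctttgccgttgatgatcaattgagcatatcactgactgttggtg

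The next 3 genes, also in the IDR list, carried other arrangements. In C51F7.4 the line runs to the end of the gene and the capitals are 2 matches to the box B word inside it. Another snoRNA gene, C51F7.3, follows on the same strand (chrV:12303708-12303783), so both matches also lie upstream of that gene. In C27H5.9 the capitals are a box A word with no box B match behind it. In M7.15 they are the AAGTGAAA core on the gene's own strand.
C51F7.4, chrV:12303489-12303693, + strand: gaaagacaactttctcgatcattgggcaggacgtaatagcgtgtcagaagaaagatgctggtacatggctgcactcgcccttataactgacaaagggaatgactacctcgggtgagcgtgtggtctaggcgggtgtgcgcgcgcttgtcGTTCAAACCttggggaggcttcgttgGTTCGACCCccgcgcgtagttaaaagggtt
C27H5.9, chrII:7184039-7184188, - strand: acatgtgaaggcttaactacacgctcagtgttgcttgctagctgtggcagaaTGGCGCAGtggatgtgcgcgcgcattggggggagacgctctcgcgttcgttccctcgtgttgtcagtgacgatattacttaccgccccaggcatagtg
M7.15, chrIV:11083037-11083186, + strand: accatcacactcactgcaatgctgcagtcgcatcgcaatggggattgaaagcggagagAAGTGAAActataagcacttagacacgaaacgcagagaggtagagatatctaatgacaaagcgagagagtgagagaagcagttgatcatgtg

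N stands for any base. The spacing in these sequences was regular. The box A word began 55 bp before the start of T03F7.8, and its box B word began 44 bp further on. The distance between the words was 44 bp at C04G6.12, 43 bp at F32E10.10 and 45 bp at W03C9.9. These words were chosen after sequences of the strongest regions had been seen, so their counts describe the regions and support nothing. A match is a run of letters and was not tested as a site.

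The regions reached the IDR list more often than candidates as a whole. Of the 230 regions, 21 were in the IDR list, or 9.13% (95% Clopper-Pearson interval 5.74 to 13.6), against 2.73% of all nuclear candidates. Among candidates within 500 bp of a tRNA gene, which RNA polymerase III transcribes, 28 of 330 were in the IDR list, or 8.48% (5.71 to 12), close to the value at snoRNA and snRNA genes. Near miRNA genes the share was 4.63% (1.52 to 10.5) of 108, and among the 29308 candidates more than 500 bp from all of these genes it was 2.61% (2.43 to 2.8). The intervals at snoRNA and snRNA genes and at tRNA genes overlapped widely, and neither overlapped that of the remaining candidates. Intervals cover counting error only, and neighbouring regions are not independent. In 7 pairs of neighbours the regions themselves overlapped.

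The IDR regions were nearly all at snoRNA genes. These gave 20 of 188 regions in the IDR list, or 10.6%, and snRNA genes gave 1 of 42, or 2.38%. The intervals of the 2 shares overlapped. The median rank in the pooled list was 8158 near snoRNA genes and 10405.5 near snRNA genes, against 15013.5 over all nuclear candidates. For the 230 regions together it was 8686, with quartiles of 2521.5 and 19113.8, so the regions spanned most of the list. Candidates near tRNA genes had a median rank of 7494.5 and those near miRNA genes 14479.5. The signal of the regions ran from 11.4 to 96.75 with a median of 19.8, against a median of 16.2 over all nuclear candidates, whose highest value was 721.8.

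**Figure D1:**
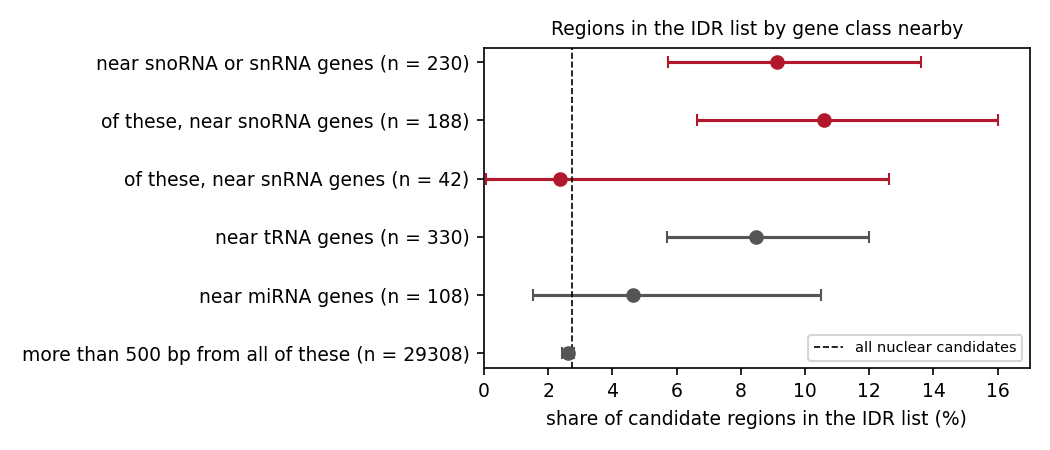
Share of candidate regions in the IDR list, in percent, by the class of gene within 500 bp. Points are shares, bars are 95% Clopper-Pearson intervals and the dashed line is the share over all nuclear candidates. Regions near snoRNA or snRNA genes (9.13%) and near tRNA genes (8.48%) lie to the right of the line at 2.73%.

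Each replicate was then read separately. A region at the top of replicate 1 overlapped 27 of the 230 regions (11.7%), against 2.96% of all nuclear candidates. For replicate 2 the count was 23 (10%), against 2.88%. Regions at the top of both replicates numbered 9 (3.91%), against 1.51%. Outside the IDR list were 2 of them, at F16A11.12 and at F18A1.11 (pooled rank 19361). That at F16A11.12 overlapped the same replicate candidates as the IDR region beside it, so these candidates were counted for both regions. A candidate of each replicate overlapped 102 of the regions, or 44.3% against 26.2% of all nuclear candidates. For candidates near tRNA genes this share was 47.3%, and near miRNA genes 36.1%. Of the 230 regions, 54 had a candidate in replicate 1 alone, 50 in replicate 2 alone and 24 in neither. Over the 102 regions the ranks in the replicates were weakly related (Spearman's rho 0.363 across regions, against 0.366 over 7855 nuclear candidates). Both values describe regions of the same pair of libraries. When the rule was applied to the summits of each replicate's own list, 23 of 207 regions of replicate 1 were at its top (11.1%, against 2.72% of its nuclear candidates). In replicate 2 they were 20 of 242 (8.26%, against 2.72%). Of the 21 regions in the IDR list, 7 were at the top of both replicates, 7 of replicate 1 alone, 6 of replicate 2 alone and 1 of neither. The share at the top of both was thus 33.3% (14.6 to 57), beside 49.6% (46.2 to 53.1) of all nuclear IDR peaks.

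**Figure D2:**
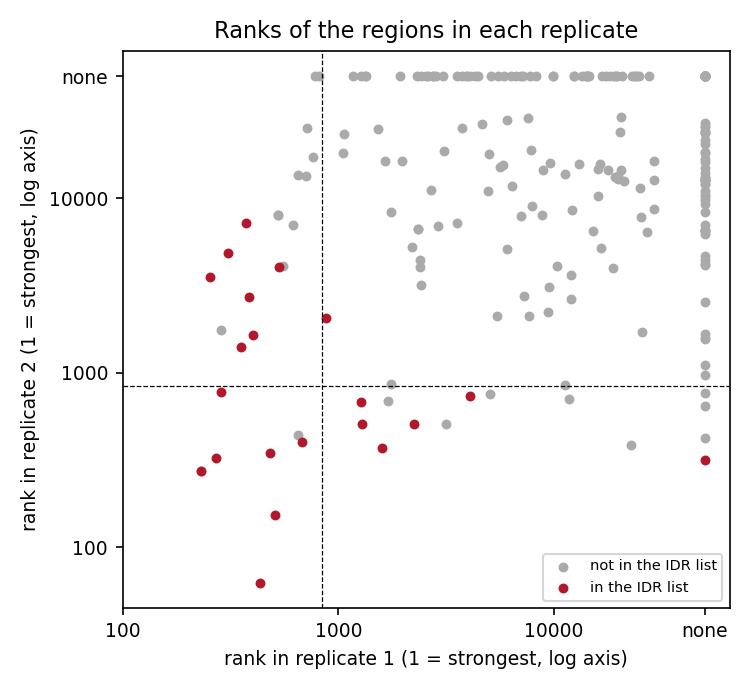
Rank of the strongest overlapping candidate in replicate 1 (x axis, log) and in replicate 2 (y axis, log) for the 230 regions, with regions that had no candidate in a replicate drawn at "none". Red points are the 21 regions in the IDR list, and dashed lines mark the top of each replicate. The red points form 2 arms, 1 at the top of each replicate, with 7 points at the top of both.

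The strongest region had a signal of 96.75 and rank 180 in the pooled list, 272 in replicate 1 and 327 in replicate 2. Its nearest small RNA gene was the snoRNA gene C06A1.9, whose start lay 492 bp away, but the summit (chrII:10563556) was 149 bp from the start of cdc-48.1, the gene of an AAA ATPase. It illustrates that the rule measures proximity and does not assign a target. The region at T03F7.8 came next (signal 93.86). It ranked 193 in the pooled list, 435 in replicate 1 and 63 in replicate 2, the best rank of any of the 230 in a replicate. Its summit (chrV:11314195) was 63 bp upstream of the snoRNA, inside an intron of the cuticlin-like gene cutl-18 on the other strand, and lay on the AAGTGAAA match (chrV:11314194-11314201) printed next to its box A word.

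A region 486 bp downstream of F16A11.12, in an intron of the phosphatase subunit gene ppfr-1, had a signal of 86.87 and ranked 231 and 275 in replicates 1 and 2. At C51F7.4 the summit lay inside the gene, 40 bp from its start and within an intron of frm-7, which encodes a FERM domain protein. Its signal was 78.53, with ranks of 511 and 154. It was the only one of the 29 regions with a summit inside the small RNA gene that was in the IDR list. The same summit also lay upstream of the neighbouring snoRNA gene C51F7.3, within 500 bp of it. M7.15, 92 bp from the summit, had a signal of 68.61 and ranks of 287 and 779, and its nearest protein-coding start was that of klc-1, a kinesin light chain gene, 680 bp away. These 5 regions were among the 7 at the top of both replicates. The other two were at W06H8.17 (ranks 481 and 349) and R07G3.16 (679 and 402), where the summits lay 407 bp and 164 bp from the small RNA gene.

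At 7 IDR regions replicate 1 alone was at its top. W03C9.9, with a summit 107 bp upstream, ranked 253 in replicate 1 and 3556 in replicate 2. ZK484.9, in an intron of the ABC transporter gene haf-9, ranked 308 and 4865, and T27A3.9 ranked 374 and 7239. ZK265.10 ranked 353 and 1399, smy-2 384 and 2707, H06I04.9 401 and 1646, and sls-2.1 529 and 4024. In replicate 2 these 7 regions thus ranked from 1399 to 7239. The summit of H06I04.9 also lay 191 bp from the start of rps-27A, a gene for a ubiquitin and ribosomal protein fusion.

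At 6 IDR regions replicate 2 alone was at its top. C27H5.9, in an intron of pdl-1, ranked 318 in replicate 2 and overlapped no candidate of replicate 1. C04G6.12, in an intron of the MAP kinase gene mpk-2, ranked 373 in replicate 2 and 1593 in replicate 1. C01B10.48 ranked 512 and 2249, F59C6.15 511 and 1295, F32E10.10 681 and 1279, and F17C11.24 737 and 4099, replicate 2 first. The summit of C01B10.48 lay 170 bp from the start of hil-7, a linker histone-like gene. H09I01.2 (874 in replicate 1 and 2071 in replicate 2) was at the top of neither, and is named here as the last of the 21, outside the rule for named genes.

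The reverse case, a strong rank in a single replicate without IDR, was shown by F38E11.10, a snRNA gene with a region of rank 384 in replicate 2 and 22754 in replicate 1. A second summit at M7.15 (chrIV:11083257) had pooled rank 26248, although its region overlapped the replicate 1 candidate of rank 287 that the stronger summit also overlapped. Regions near the edge of the 500 bp rule varied in strength, the strongest of all, at C06A1.9, lying 492 bp from its gene. The 3 just inside lay 499, 495 and 494 bp from W06H8.17, F18A1.11 and C04A2.16 with signals of 11.5, 14.5 and 12.8. The 3 just outside lay 503, 507 and 507 bp from K11D9.10, B0213.24 and C04A2.16 with signals of 14.6, 12.7 and 35.1. None of these 6 was in the IDR list. That at F18A1.11 had pooled rank 19361, although it overlapped candidates of rank 647 and 439 in replicates 1 and 2. An overlap of 1 bp sufficed, so those candidates may have their summits elsewhere, which was not examined.

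The summits gathered just before the gene. Upstream of the annotated start lay 121 summits, of which 17 (14%) were in the IDR list, while 29 lay inside the gene with 1 in the IDR list and 80 downstream with 3. The 46 summits within 100 bp upstream were the most crowded stretch and held 10 of the 21 IDR regions, a share of 21.7%, against 9.33% of the 75 summits farther upstream. The median position of the IDR regions was -63 bp from the start, with quartiles of -107 and -14 bp, while that of the other 209 regions was 0 bp with quartiles of -174 and 255. All 17 upstream IDR regions were at snoRNA genes, where they were 16.8% of 101 upstream summits. At snRNA genes 20 summits were upstream, 5 inside and 17 downstream.

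**Figure D3:**
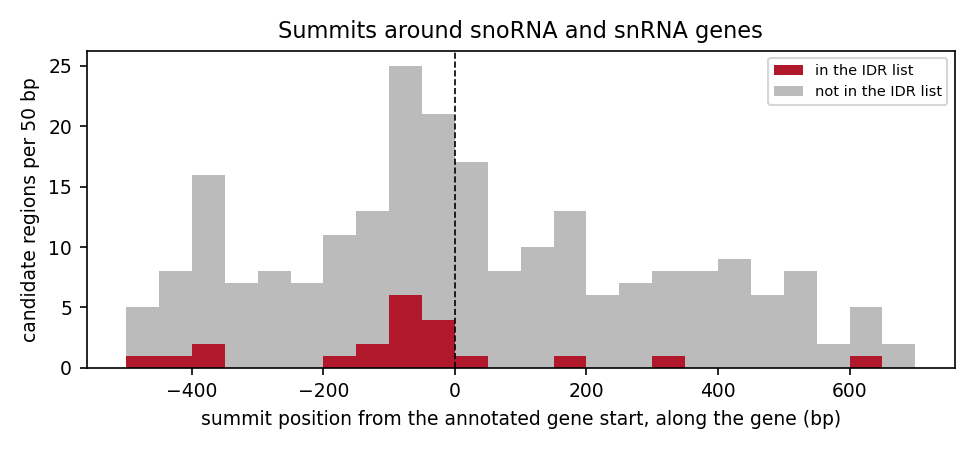
Number of summits per 50 bp by position from the annotated start of the nearest snoRNA or snRNA gene, along the gene's direction (negative is upstream). Red marks regions in the IDR list, grey the others, and the dashed line is the gene start. The tallest bars, and 10 of the 21 red counts, lie in the 100 bp before the start.

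Introns of host genes held 82 of the 230 summits, or 35.7%, close to the 37.1% of all nuclear candidates in introns of protein-coding genes. For every one of the 82 the small RNA gene lay wholly in the same protein-coding gene, and 76 host genes were counted. Of the 82, 7 (8.54%) were in the IDR list, against 1.82% of 11038 other intronic candidates. The small RNA gene had the host's direction at 65 regions, with 3 in the IDR list (4.62%). It had the opposite direction at 17 regions, with 4 in the IDR list (23.5%), at cutl-18, haf-9, mpk-2 and pdl-1. The 3 on the host's strand were at ppfr-1, frm-7 and C33A12.3. Counts of 3 and 4 are small, and the difference was not tested.

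Exons of protein-coding genes held 31 summits (13.5%, against 18.7% of all nuclear candidates) and no IDR region. A count of 0 of 31 allows a share of up to 9.68%. Among the 5570 other exonic candidates the share was 1.15%, so the 0 does not set the regions apart. Another 117 summits (50.9%, against 44.2% of all nuclear candidates) lay outside protein-coding genes, with 14 in the IDR list (12%, against 4.05% of other candidates there). Protein-coding promoter windows, which spanned 2000 bp before and 500 bp after a start, held 121 summits (52.6%, against 42.9%). Inside these windows 11.6% of the regions were in the IDR list, against 3.56% of other candidates. Outside them the share was 6.42% of 109, against 2.02%. The share was thus higher than that of other candidates in both settings. For the 121 regions in a window, proximity does not tell to which gene a summit belongs. Windows of genes for ribosomal proteins held 7 of the regions, and no host gene was one. The share of all nuclear candidates in such windows was not counted, so the 7 cannot be called many or few.

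Base composition moved with these shares. The 101 bases around the summit had a median G+C content of 38.6% in the 230 regions, against 31.7% over all nuclear candidates. The median was 41.6% for candidates near tRNA genes. In the 21 IDR regions it was 49.5%, against 43.6% over all nuclear IDR peaks. Among summits under 35% G+C, 2.3% of 87 regions were in the IDR list, against 0.664% of other candidates. Between 35 and 45% the shares were 8.45% of 71 and 4.32%. At 45% or more they were 18.1% of 72 and 9.32%. The regions' share was thus above that of other candidates in each class, with 2, 6 and 13 IDR regions behind the 3 values. The part of base composition in the pooled difference was not tested. Repeated sequence was limited: a mean of 2.15% of the 31-base words around the summit occurred elsewhere in the genome, 0.582% near snoRNA genes and 9.19% near snRNA genes, against 1.21% over all nuclear candidates. Placement of reads is therefore less certain at snRNA genes, many of which have near-identical copies.

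AAGTGAAA on either strand lay wholly within 50 bp of 7 summits (3.04%, against 2.23% of all nuclear candidates), and of 2 of the 21 IDR regions (9.52%, interval 1.17 to 30.4), T03F7.8 and M7.15. It did so at 15.5% of all nuclear IDR peaks, a value inside that interval. The other regions with the word that the naming rule gives were at sls-2.5 (pooled rank 3651), T08H4.9 (4028), F58D5.11 (7116) and ZK484.11 (23648). GAGAGA, on either strand, was present at 24 summits (10.4%, against 7.67%) and at 4 of the 21 IDR regions, or 19% (5.45 to 41.9), against 30.6% of all nuclear IDR peaks. CTGTTTCA, the core of a word upstream of C. elegans piRNA genes, was at no summit within 50 bp, which allows a share of up to 1.3%, against 1.19% of all nuclear candidates. Within 150 bp it was at 1 summit (0.435%, interval 0.011 to 2.4), against 3.51% of all nuclear candidates.

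The box words were searched in a wider window. GTTCNANNC on either strand lay within 100 bp of 32 summits (13.9%, interval 9.72 to 19.1), against 6.76% of all nuclear candidates and 52.4% of candidates near tRNA genes. Within 50 bp the share was 7.39%, against 3.34%. Of the 32 regions with the word, 28 had it on the strand of the small RNA gene alone and 4 on the other alone. In the IDR list it was at 7 of the 21 regions (33.3%, 14.6 to 57), against 7.33% of all nuclear IDR peaks. TGGCNNAG was within 100 bp of 26 of the 230 summits, against 4.89% of all nuclear candidates, and of 6 IDR regions (28.6%, against 6.85%).

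The same words were then read in the frame of the gene, on its own strand, over all annotated genes, near a region or not. They had been chosen after sequences of IDR regions were seen, so this reading is not independent of the regions. A box B word began 30 to 1 bp before the start at 33 of 346 snoRNA genes (9.54%), 11 of 129 snRNA genes (8.53%), 2 of 261 miRNA genes and 90 of 19973 protein-coding genes (0.451%). Together with a box A word 80 to 45 bp before the start it was found at 14 snoRNA genes (4.05%) and at no gene of the other kinds. At these 14 genes the words were 43 to 52 bp apart. In snRNA genes the box B word began 8 to 6 bp before the start. Of the 11 snRNA genes with it, 10 were sls-1 copies, which lie in 1 cluster of repeated genes, so the count rests largely on 1 repeated gene. Among the other 117 snRNA genes, smy-9 alone had the word (named after its values were seen).

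A candidate summit lay within 500 bp of 26 of the 33 snoRNA genes with the box B word (78.8%) and of 141 of the 313 without it (45%). An IDR summit lay within 500 bp of 6 of the 33 (18.2%, interval 6.98 to 35.5) and of 16 of the 313 (5.11%, 2.95 to 8.17). Of the 14 genes with both words, 12 had a candidate and 4 an IDR summit (28.6%, 8.39 to 58.1). The intervals overlapped for the IDR shares of genes with and without the box B word. The words were chosen after sequences of IDR regions were seen, so this contrast describes the genes and supports nothing. Among the 11 snRNA genes with the word, nearly all of them sls-1 copies, 1 had a candidate. Over all 475 snoRNA and snRNA genes, 24 had an IDR summit within 500 bp (5.05%, 3.26 to 7.42), close to 31 of 612 tRNA genes (5.07%, 3.47 to 7.11), beside 1.75% of protein-coding gene starts. A summit counted for each gene within 500 bp, as at C51F7.3 and C51F7.4, C27H5.9 and C27H5.10, and smy-1 and smy-2. Neighbouring genes are thus not independent, which the intervals ignore.

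**Figure D4:**
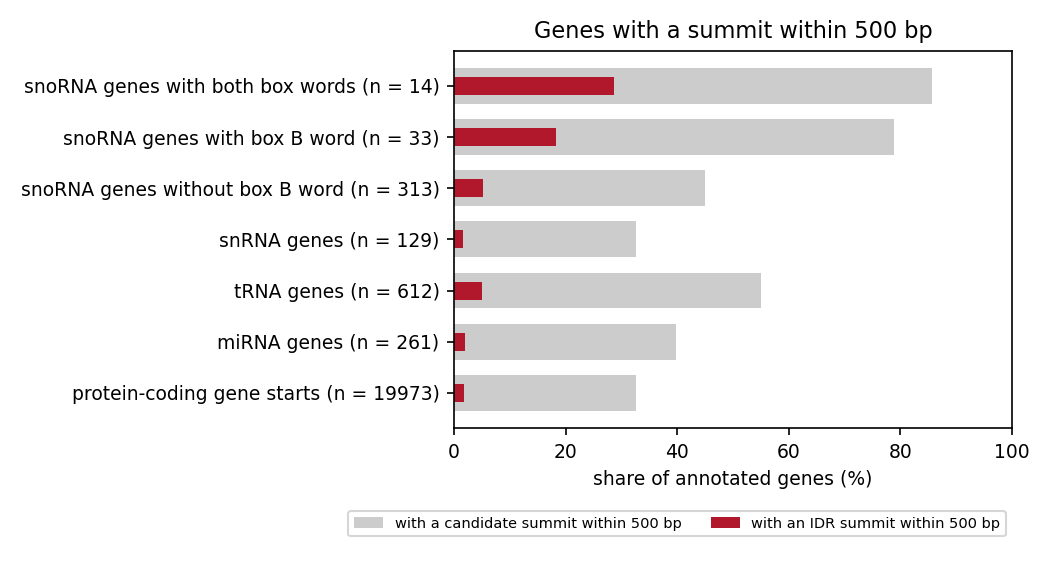
Share of annotated genes, in percent, with a candidate summit (grey) and with an IDR summit (red) within 500 bp, by gene class and, for snoRNA genes, by the box words before the start. Genes with both words (12 and 4 of 14) have the longest bars of each colour. The words were chosen after sequences of IDR regions were seen.

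Seen from the regions, 30 had a gene with the box B word, 6 of them in the IDR list (20%), and their median pooled rank was 2011. The 13 regions at genes with both words had a median rank of 1708 and 4 in the IDR list. The 190 regions whose gene had neither word had a median rank of 10771 and 14 in the IDR list (7.37%). Of the 200 regions at genes without the box B word, 15 were in the IDR list (7.5%), beside 2.73% of all nuclear candidates. This split was made after the data were seen, and the part of the word in the share was not tested. The strongest regions with both words outside the IDR list were at Y43F8C.22 (rank 1082, summit 49 bp upstream), T19B4.8 (1394) and T24H7.6 (1708, 31 bp upstream), which are named after their values were seen.

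**Figure D5:**
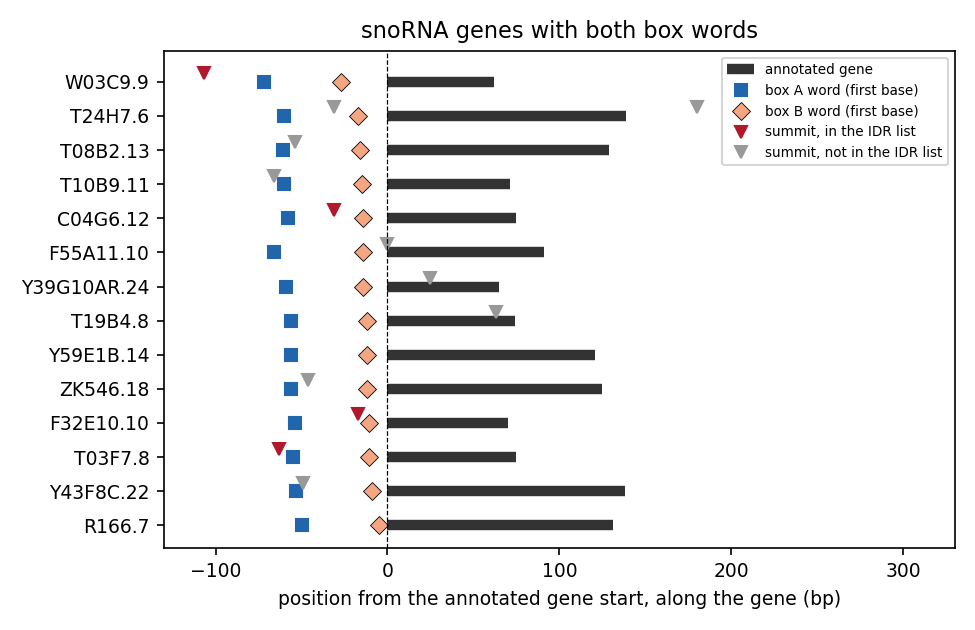
Positions of the box A word (squares) and the box B word (diamonds) and of candidate summits (triangles, red in the IDR list) from the annotated start of the 14 snoRNA genes with both words, along the gene in bp, with the gene as a dark bar. The words sit 43 to 52 bp apart before the start, and 9 of the 13 summits lie upstream of it.

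By nearest gene, the only snRNA region in the IDR list was at sls-2.1, a gene of the SL2 spliced leader RNA. Its summit lay 76 bp downstream of the gene, with a signal of 52.95 and ranks of 529 and 4024 in replicates 1 and 2. The 121 bases centred on it are shown as the only IDR case nearest a snRNA gene. They hold neither box word nor the AAGTGAAA core, as was also true of 10 of the 20 snoRNA regions in the IDR list, and the 101 bases around the summit are 25.7% G+C.
sls-2.1, chrII:5844990-5845110, + strand: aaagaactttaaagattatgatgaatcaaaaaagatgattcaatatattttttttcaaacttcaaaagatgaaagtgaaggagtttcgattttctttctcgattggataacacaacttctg

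The sls-2 genes together had 15 regions at 13 genes, with a median pooled rank of 5974. The single region at a gene of the other spliced leader RNA, sls-1.12, had rank 20997. At sup-39, a U1 snRNA gene known from suppressor mutations, the region had rank 21830 with the summit inside the gene. The smy genes had 4 regions, of which that at smy-2, a gene annotated as snoRNA, was in the IDR list and that at smy-11, annotated as snRNA, ranked 13118. The IDR summit at smy-2 was also within 500 bp of smy-1, which is annotated as snRNA.

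Chromosome I had 56 of the regions, II had 55, III had 30, IV had 46, V had 32 and X had 11. The X chromosome held 4.78% of them, although it carries 7.58% of the snoRNA and snRNA genes and 18.4% of all nuclear candidates. None of its 11 regions was in the IDR list, which allows a share of up to 27.3%. Over all nuclear candidates the share was 2.73%, so the 0 does not set X apart. The 21 IDR regions were divided as 5, 6, 1, 5 and 4 over chromosomes I to V. The IDR share of all candidates was not counted by chromosome, so these are counts only.

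Genes for proteins that work with these RNAs were read from a list of 50 names, which gave 41 genes. Of these, 34 encode proteins of the snoRNA and snRNA particles or their assembly factors, and 7 are snpc genes, for subunits of the complex that activates snRNA transcription. A candidate summit was in the promoter window of 31 of them (75.6%, against 55.1% of all protein-coding genes), and an IDR summit in that of 5 (12.2%, against 3.3%). Among the 34 the counts were 27 (79.4%) and 5 (14.7%), and among the 7 snpc genes 4 and 0. The 5 genes with an IDR summit were prp-6 (signal 72.3), which encodes a protein of the U5 small nuclear particle, lsm-3 (70.4), for a Sm-like protein, nola-3 (60) and Y48A6B.3 (58), for proteins of the H/ACA particle, and snr-2 (48.7), for a Sm protein. The first 4 were at the top of both replicates. At snr-2 the rank was 324 in replicate 1, and no candidate of replicate 2 overlapped. The list was drawn up with earlier results of these data known, and no test was made of it.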

How the data were processed

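The deposited ce11 peak lists of the eGFP-BLMP-1 ChIP-seq, in narrowPeak form, were the authors' IDR list and 3 lists of candidates, 1 pooled and 1 for each of 2 replicates. Per the labels the replicates form 1 group. Strength is the deposited signal score, whose scale the authors did not state in the lists. The deposited -log10 q value was used to rank in 1 alternative only, and the deposited summit offset, in bp, placed the summits. Aligner, peak caller and IDR threshold are not given in the sources used here, and per the labels the library size range was 150 to 350 bp. Signal tracks, alignments, control reads and the ce10 lists were not used here. Depth is unknown.

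Summits were placed on the WBcel235 genome, the build of the ce11 lists, with the Ensembl release 115 annotation. Symbols came from RefSeq, in which all 475 snoRNA and snRNA genes were matched by WormBase gene ID. Positions are 1-based. A pooled candidate was in the IDR list where the chromosome, start and summit were the same, and in a replicate where it overlapped a candidate there by at least 1 bp, of which the strongest gave the rank. The counting was tested on simulated data. Host introns were counted where the summit lay in an intron and its small RNA gene lay wholly inside the same protein-coding gene.

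Both strands were searched for words, the whole word lying within 50 bp of the summit for AAGTGAAA, GAGAGA and CTGTTTCA, and within 100 bp for GTTCNANNC and TGGCNNAG. Matches of each word were counted apart, and those of AAGTGAAA and GAGAGA at M7.15 share 1 base. GTTCNANNC and TGGCNNAG were chosen after the sequences of IDR regions were seen. The regions, the gene list and the other choices were made with earlier results of these data known. Of the 50 names of the list of particle proteins, assembly factors and snpc genes, 5 matched no gene, 3 repeated a gene already listed, and gar-1 was left out because this symbol belongs to a muscarinic acetylcholine receptor gene. The rule for named genes took the 12 strongest regions, up to 20 in the IDR list, the strongest of each named gene class, up to 6 with AAGTGAAA, and the 3 highest in each replicate outside the top of the other. Any other gene named was picked with its values known.

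No test was run: shares carry 95% Clopper-Pearson intervals and are set beside the same share over all nuclear candidates. The limit at a count of 0 is 3 counts of the total. Python 3.11.15, numpy 2.4.6, pandas 2.3.3, scipy 1.17.1 and matplotlib 3.10.9 were used.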

Additional observations from a re-analysis of the deposited data

How the results depend on the processing

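Of 64 alternative values, 51 stayed within the interval of the reported value, or within 1.5 times for counts, and 13 moved. A distance of 200 bp gave 139 regions and 1000 bp gave 372. At 200 bp, 51.1% had a candidate in both replicates, and with a replicate summit within 100 bp or a reciprocal overlap of 50% this share was 26.1% and 33.9%. It cannot be computed without a replicate. The median rank was 11185 to 12761 when each replicate's own list was used alone, 12761 being the value without replicate 1. With the IDR peaks of above-median signal alone the share of regions in the list was 3.04%, against 1.32% of all nuclear candidates, and that of genes with an IDR summit 1.68%. Host introns held 28.3% when the host had to be on the same strand, and a promoter window of 1000 bp upstream to 200 bp downstream held 32.6%. GAGAGA was at 17.8% within 100 bp of the summit. In alternatives chosen after seeing the data, GTTCNANNC was at 7.39% within 50 bp, and the stricter GTTCGANNC at 6.96%, against 3.34% and 1.66% of all nuclear candidates. No paired analysis was possible because the replicates form 1 group.

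With 2 replicates, 1 group and no read counts, differences of shares were set against counting error only. The depth is unknown, so the precision of single signal values is unknown, and no control was analysed here.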
